A study of Drosophila melanogaster with 2 samples.

Results

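The genes described are 9 nuclear receptor genes of the ecdysone cascade of Drosophila melanogaster: EcR, usp, Eip75B, Eip78C, Hr3, Hr4, Hr38, Hr39 and ftz-f1. They were chosen by name, and make up 9 of the 13968 protein-coding genes annotated on the main chromosome arms. A peak summit was given to a gene when it lay inside the gene body, or when the nearest protein-coding start site was one of that gene's and lay within 10 kb. By this rule the 9 genes held 36 of the 5327 peaks in the authors' list thresholded by irreproducible discovery rate (IDR). IDR scores how well peaks agree between replicates. The 9 genes also held 167 of the 29208 regions called on the pooled data, 160 of 28127 in replicate 2 and 165 of 30000 in replicate 3. The IDR list is the 5327 pooled regions of highest signal, so a peak in it need not be found in each replicate.

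The peaks come from chromatin immunoprecipitation sequencing (ChIP-seq) of fd59A, a forkhead-box transcription factor. Whole prepupae of both sexes were used, from 1 transgenic line that stably carries fd59A with a green fluorescent protein tag at its C terminus, and the precipitation used an antibody against that tag. The labels give the age as 24 day. The 2 samples are biological replicates 2 and 3 of this 1 group, so no comparison between conditions can be made, and no control library is among them. Per the file descriptions the authors called the regions with a control, which could not be examined here. Signal that does not depend on the tagged protein cannot be told apart from signal that does. Whole animals were used, so the cells in which a site was bound are unknown. The tagged gene itself, fd59A, had 1 IDR summit, 531 bp from its start site, with a signal of 113 and rank 4975.

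Ecdysone is the steroid hormone that times moulting and metamorphosis in insects. It binds a heterodimer of the receptors EcR and usp, which switches on a small set of early genes, several of which encode further nuclear receptors. These receptors then pass the pulse on in sequence, some as activators and some as repressors of the next ones, and in the prepupa a dip in the hormone lets ftz-f1 be expressed ahead of the next pulse.

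The sequences under the strongest IDR summit of 5 of the genes are shown, since these are the positions of highest signal that the values below turn on. Each runs 5′ to 3′ in the direction of the gene and covers 50 bp to either side of the summit in dm6, read from the RefSeq copy of that assembly. No sequence is shown for EcR, usp, Hr3 or Hr39. Capitals mark any of the 9 motifs searched, on either strand, and the motifs are given further on.
Eip78C (chr3L:21253845-21253945, plus strand): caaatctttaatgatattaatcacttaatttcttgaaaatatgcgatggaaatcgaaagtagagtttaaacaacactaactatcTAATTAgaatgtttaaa
Hr4 (chrX:1951869-1951969, plus strand): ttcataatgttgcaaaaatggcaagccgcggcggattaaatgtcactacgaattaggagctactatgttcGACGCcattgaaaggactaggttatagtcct
Eip75B (chr3L:18009151-18009251, minus strand): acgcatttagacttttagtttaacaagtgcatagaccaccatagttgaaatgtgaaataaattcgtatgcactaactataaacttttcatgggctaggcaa
Hr38 (chr2L:20700686-20700786, minus strand): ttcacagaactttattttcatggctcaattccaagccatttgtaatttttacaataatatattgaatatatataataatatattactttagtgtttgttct
ftz-f1 (chr3L:18791490-18791590, minus strand): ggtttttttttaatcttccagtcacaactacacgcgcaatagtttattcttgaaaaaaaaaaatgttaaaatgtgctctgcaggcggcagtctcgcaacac
GC content was 23.8% in the Eip78C window, 42.6% in the Hr4 window, 33.7% in the Eip75B window, 21.8% in the Hr38 window and 37.6% in the ftz-f1 window. Of these 5 windows, those of Eip78C and Hr4 held 1 motif match each, and the other 3 held none.

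Of the 9 genes, 8 had at least 1 IDR summit, and Hr39 had none. By the same rule 20.7% of all protein-coding genes had one. A pooled region of any signal was found at all 9, against 56.5% of protein-coding genes, and a summit among the 1000 strongest at 5, against 5.96%. The 9 genes are long, with a median body of 39895 bp against 2165 bp for all protein-coding genes, and a longer body can hold more summits. Among genes at least as long as usp, the shortest of the 9 at 3514 bp, 37.6% had a summit, and among genes of at least 20 kb 59.6% had one. The 8 genes with a summit include usp, which is outside the 20 kb class. Over the bodies of the 9 genes there were 0.792 IDR summits per 10 kb, against 0.363 over all protein-coding bodies together. These shares and densities are descriptions, with no test, since the genes were chosen with earlier results of these data known.

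**Figure D1:**
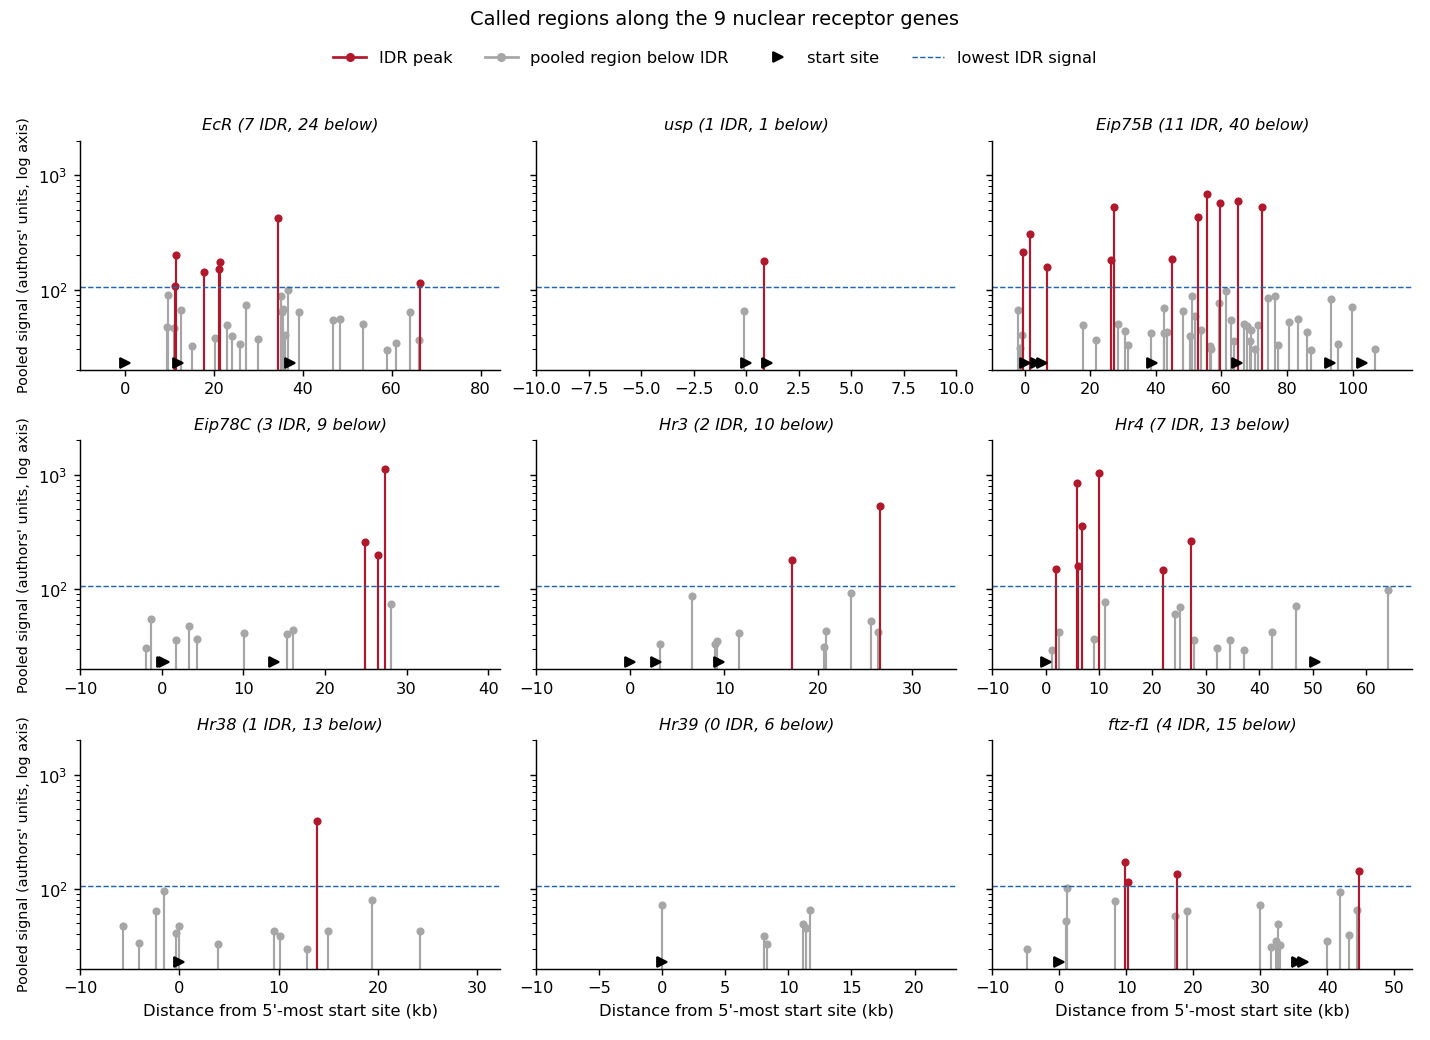
Signal of every pooled region at the 9 genes (authors' units, log axis) against distance from the 5′-most start site of each gene in kb, in the direction of transcription. Red stems are IDR peaks, grey stems are regions below the IDR threshold, triangles are start sites and the dashed line is the lowest IDR signal. The red stems of Eip75B, Hr4 and Eip78C stand highest and away from most triangles, and Hr39 has grey stems only.

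Most of the 36 summits lay deep inside introns. In all, 32 lay in introns outside the gene's own promoters, 3 within 500 bp of one of its start sites and 1 upstream of the gene. Over all pairs of a protein-coding gene and an IDR summit given to it, 54.0% were in such introns and 28.8% in the gene's promoters. The median distance to the nearest own start site was 8824 bp, with a range of 25 to 29192 bp. The summit lay over 5 kb from every own start site in 27 of the 36, against 31.0% of all pairs. The pairs cover genes of every length, and the 9 genes are long, as given above. A short body has little room for such summits, and the part of length in these shares was not tested. For 9 of the 36 the nearest protein-coding start site belonged to another gene, so the link of these summits to the nuclear receptor gene rests on position inside its body.

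The signal of a peak is the authors' own score of its height, on a scale that the sources used here do not give. Among the 36 summits it had a median of 201 and ran from 107 to 1120.5, and over all IDR peaks the median was 193. Of the 36, 11 ranked among the 1000 strongest IDR peaks, a set that holds 18.8% of all of them. Eip75B had 6 of the 11, Hr4 had 2, and EcR, Eip78C and Hr3 had 1 each. The IDR list holds the same regions as the 5327 pooled ones of highest signal. Just inside that threshold was an EcR region of signal 107 at rank 5296, and the member region nearest below it was at ftz-f1, with a signal of 102 at rank 5575.

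EcR, which encodes the hormone-binding subunit of the receptor, lies on arm 2R at 6087873 to 6169087 on the minus strand (FBgn0000546) and had 7 IDR summits. The strongest, at 6134712, had a pooled signal of 419 at rank 894, with 191 in replicate 2 and 235 in replicate 3. It lay 2790 bp upstream of the start shared by EcR-RB and EcR-RC, while the nearest protein-coding start was that of CG14589, at 2591 bp. The summit was inside the long intron of EcR-RA, EcR-RD and EcR-RE. In the same intron were overlapping peaks at 6147620 (signal 176) and 6147819 (151), and a summit at 6151282 (144).

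At the internal start of EcR-RD and EcR-RE, an IDR summit lay 323 bp upstream with a signal of 201. Its signal was 96.7 in replicate 2 and 114 in replicate 3. An overlapping weaker peak lay 564 bp upstream (107), in the first intron of EcR-RA. The start of EcR-RA had no called region within 500 bp in any list, and the start of EcR-RB, EcR-RC and EcR-RG had a region below the IDR threshold (98.6, rank 5761). That region ranked 3013 in replicate 2 and 16448 in replicate 3, so the replicates differed widely there.

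The replicates also differed at other EcR summits. The summit at 6151282 ranked 25218 in replicate 2 (signal 19.6) and 2411 in replicate 3 (120.4). The summit at 6157693 ranked 13376 in replicate 2 and 4714 in replicate 3. At 6102649, in an intron shared by all 6 transcripts and 29192 bp from the nearest own start, the pooled signal was 114 and replicate 2 had 61.5. Replicate 3 had no summit within 100 bp of the pooled one, with the nearest 104 bp away at rank 6557 (signal 49.6). The replicate summits themselves lay 14 bp apart, with rank 3988 in replicate 2. At this site the match failed by the position of the pooled summit, and both replicates listed a region.

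The other subunit is encoded by usp, the fly counterpart of the vertebrate retinoid X receptors, a compact gene on the X at 2038798 to 2042311 on the minus strand (FBgn0003964). It had 1 IDR summit, 158 bp upstream of the start of usp-RA, with a pooled signal of 177 at rank 2981. Its signal was 59.8 in replicate 2 (rank 4125) and 119 in replicate 3 (rank 2439). The same position is in an exon of usp-RB and inside the body of the overlapping gene Actn. The start of usp-RB had a region below the threshold, 115 bp upstream (64.8, rank 9104).

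Eip75B, an early gene whose product binds haem and acts as a repressor, had the most summits of the 9 genes. It spans 113744 bp of arm 3L, from 17950953 to 18064696 on the minus strand (FBgn0000568), with 7 transcripts that each have their own start site. It had 11 IDR summits, all matched in both replicates and all at the maximum of the deposited −log10 q value, which 80.8% of all IDR peaks share. Of these, 1 lay at a start site, 9 in introns and 1 upstream of the gene.

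The strong summits of Eip75B were spread around the start of Eip75B-RC. A summit 25 bp inside that transcript had a pooled signal of 593, with 303 in replicate 2 and 278 in replicate 3. Upstream of it, in the intron shared by the transcripts of the distal starts, lay summits at 5417 bp (576), 9380 bp (690.4) and 12108 bp (430.2). The summit at 9380 bp was the strongest of the gene, with 289 in replicate 2 and 398 in replicate 3.

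Another summit lay 7459 bp downstream of the same start, in the next intron, with a signal of 529.9. Farther upstream, between the start sites of Eip75B-RB and Eip75B-RG, were summits at 18037655 (527) and 18038406 (182). The second of these lay 126 bp from the start of the noncoding gene lncRNA:CR45922. For both of them the nearest protein-coding start was that of CG32192. Further Eip75B summits lay at 18019805 (187) and 18058044 (158), and that at 18058044 had the lowest signal of the 11.

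Near the distal end, a summit lay in the first intron of Eip75B-RF (307), with 143 in replicate 2 and 159 in replicate 3. A further one lay 583 bp upstream of the Eip75B-RF start, outside the gene body (213). It was the single member summit outside a gene body, and outside the gene bodies no IDR summit nearest to a member's start lay beyond the 10 kb limit. Of the 7 start sites of Eip75B, only that of Eip75B-RC had an IDR summit within 500 bp. The starts of Eip75B-RA (83.2, rank 6939) and Eip75B-RG (42.1, rank 16134) had weaker regions, and those of Eip75B-RB, Eip75B-RD, Eip75B-RE and Eip75B-RF had no pooled region.

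**Figure D2:**
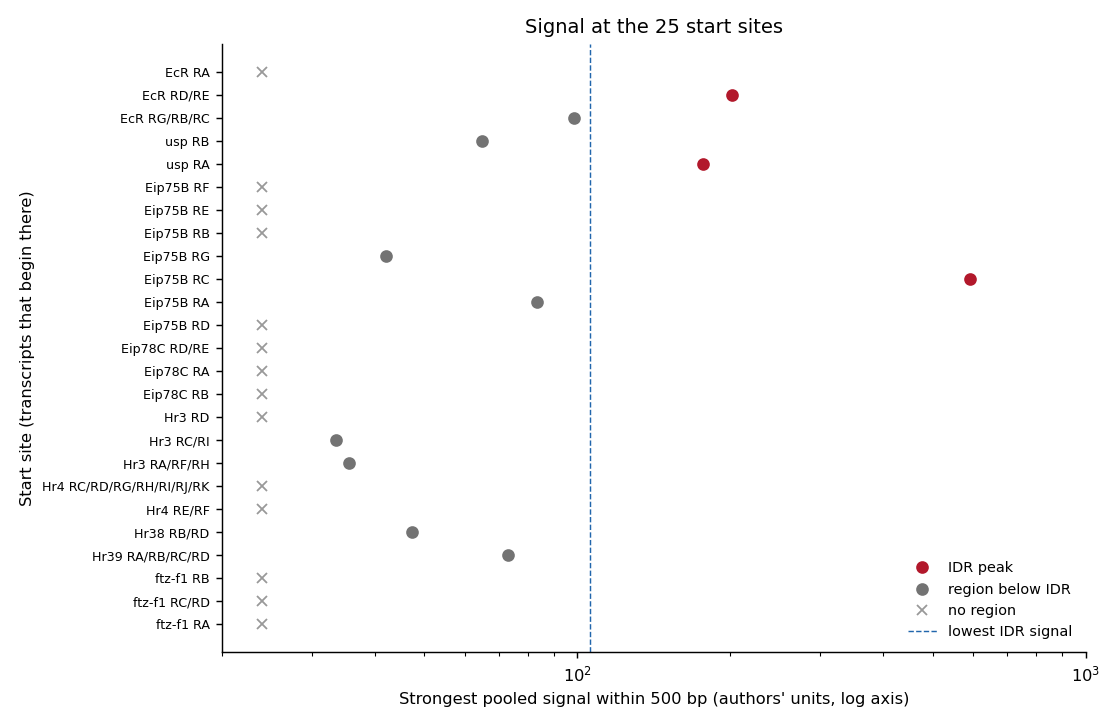
Strongest pooled signal within 500 bp of each of the 25 start sites (authors' units, log axis), with start sites of 1 gene within 100 bp of each other taken as 1. Red points are IDR peaks, grey points are regions below the IDR threshold and crosses, placed at the left edge, mark start sites with no region. The 3 red points are at EcR-RD and EcR-RE, usp-RA and Eip75B-RC, and 14 starts have a cross.

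Eip78C, a relative of Eip75B that also answers the hormone, held the strongest summit of all 9 genes. The gene lies on 3L at 21226609 to 21266503 on the plus strand (FBgn0004865) and had 3 IDR summits, all in the same intron. The strongest, at 21253895, had a pooled signal of 1120.5 at rank 85, with 552 in replicate 2 (rank 60) and 566 in replicate 3 (rank 125). Its sequence is the first of those shown. It lay 13548 bp downstream of the start of Eip78C-RB, in an intron of all 4 transcripts.

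The other Eip78C summits had signals of 256 at 21251527 and 201 at 21253098. The nearest protein-coding start to each of the 3 was that of CG43218, which lies 4125 bp from the strongest. None of the 3 start sites of Eip78C had a called region within 500 bp in any list, and assigned by nearest start alone the gene would have no summit.

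Hr3 and Hr4 are early-late genes, induced by the hormone and by early products, and both products take part in switching on ftz-f1. Hr4 lies on the X at 1941940 to 2007956 on the plus strand (FBgn0264562) and had 7 IDR summits, all in introns and all matched in both replicates. The strongest, at 1951919, lay 9979 bp downstream of the distal start and had a pooled signal of 1036 at rank 109. It had 447 in replicate 2 (rank 114) and 583 in replicate 3 (rank 115).

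The next strongest Hr4 summit, at 1947754, had a signal of 853 at rank 183, with 379.5 in replicate 2 and 460.1 in replicate 3. Close by were summits at 1947953 (161), whose peak overlaps it, and at 1948699 (354). These 4 summits, together with one at 1943904 (151), sat in a single intron of 10387 bp near the distal start. The remaining ones, at 1963916 (146) and 1969137 (263), lay in the following introns. Neither Hr4 start site had a pooled region within 500 bp.

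Hr3 lies on 2R at 10203995 to 10237348 on the minus strand (FBgn0000448) and had 2 IDR summits. The stronger, at 10210796, had a signal of 529 at rank 593, with 224 in replicate 2 and 316 in replicate 3. It lay 551 bp from the start of the noncoding gene lncRNA:CR46322 and 11085 bp from the nearest protein-coding start, that of CG34221. Among Hr3 starts the nearest was that of Hr3-RA, Hr3-RF and Hr3-RH, 17161 bp upstream of the summit. The weaker, at 10220096, had a signal of 179 and lay 7861 bp downstream of that start. Both positions also lie in the bodies of the overlapping genes CG12912 and CG46321, so their place in Hr3 is not unique. Of the 3 Hr3 start sites, 2 had regions of low signal (33.5 and 35.5) and the distal one had none.

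ftz-f1, whose product makes prepupal tissues competent for the next hormone pulse, had 4 IDR summits but none of high signal. The gene lies on 3L at 18750607 to 18801309 on the minus strand (FBgn0001078). The strongest summit, at 18791540, had a pooled signal of 172 at rank 3079, with 90.9 in replicate 2 and 92.9 in replicate 3. The other summits had signals of 143, 134 and 114. Of the 4, 3 lay in the long intron of ftz-f1-RB upstream of the internal starts, and the fourth lay in an intron that all 4 transcripts share.

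All 4 ftz-f1 summits ranked higher in replicate 2 than in replicate 3. Their ranks were between 2449 and 3412 in replicate 2 and between 3333 and 8564 in replicate 3. With each replicate's list limited to its 5327 strongest regions, ftz-f1 held 6 regions in replicate 2 and 2 in replicate 3, the one gene of the 9 whose count moved that far. None of the 3 ftz-f1 start sites had a pooled region within 500 bp, although the single lists each had a weak one at the start of ftz-f1-RC and ftz-f1-RD.

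Hr38 and Hr39 stand to the side of the main sequence. The product of Hr38, the fly NR4A receptor, can pair with usp, and that of Hr39 is related to the ftz-f1 protein and binds similar sites. Hr38, on 2L at 20683462 to 20714588 on the minus strand (FBgn0014859), had 1 IDR summit, in an intron 13852 bp downstream of its start. It had a pooled signal of 388 at rank 1024, with 160.0 in replicate 2 and 231 in replicate 3. Its start site had a weaker region (47.4, rank 13439).

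Hr39, on 2L at 21237250 to 21259675 on the plus strand (FBgn0261239), had 6 pooled regions, all below the IDR threshold. The strongest lay 58 bp upstream of the start shared by all 4 transcripts, with a pooled signal of 72.9 at rank 7967. It had 35.1 in replicate 2 (rank 8302) and 38.6 in replicate 3 (rank 8458), so both replicates listed it and neither placed it high. The others had signals between 33.2 and 65.4. This start-site region is one that a looser threshold would bring in, and the IDR list does not.

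The start sites held IDR summits at about the share seen over all promoters. Of the 25 start sites of the 9 genes, 3 had an IDR summit within 500 bp and 11 had any pooled region, against 12.1% and 33.5% of all promoters of protein-coding genes. The 8 starts whose region was below the threshold had signals from 33.5 to 98.6. Pooled regions in the 9 genes passed the threshold in 36 of 167 cases, against 18.2% of all pooled regions. By gene this share ran from 0 of 6 at Hr39 to 7 of 20 at Hr4, leaving aside usp, where 1 of 2 passed.

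Both replicates showed nearly all of these summits. Of the 36, 35 had a summit of each replicate within 100 bp, against 92.7% of all IDR peaks. The IDR list holds the strongest regions of the pooled data of the same replicates, so such matches are largely built in. For 29 of the 36 the matching regions were among the 5327 strongest of both replicates, against 74.6% of all. Of the 35 matched, 20 ranked higher in replicate 2 and 15 in replicate 3. Spearman's rho between the replicate signals was 0.79 across these 35 summits, given as a description, since summits of 1 gene share its surroundings and all share the same 2 libraries. None of the 11 summits among the 1000 strongest ranked below 1199 in either replicate, and the widest gaps in rank were at the EcR summits 6151282 and 6157693.

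**Figure D3:**
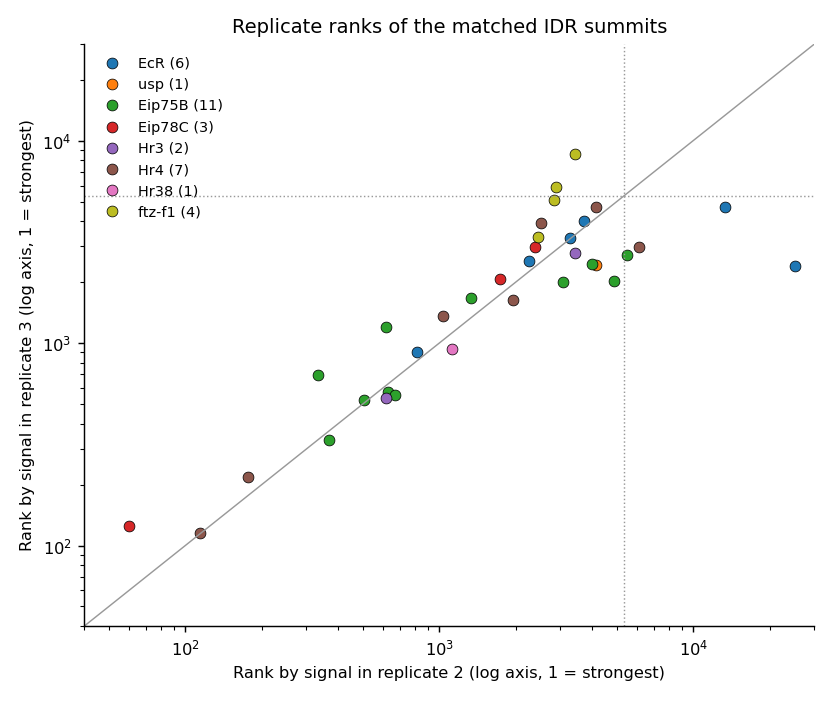
Rank by signal in replicate 3 against rank in replicate 2 (log axes, 1 is the strongest) for the 35 IDR summits matched in both, coloured by gene with the number of summits. The solid line is equal rank and the dotted lines are at rank 5327. The summits of Eip78C, Hr4 and Eip75B that rank highest lie near the line, ftz-f1 summits lie above it and 2 EcR summits lie far to its right.

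The sequence under the member summits was AT-rich, like that under IDR peaks in general. GC content within 50 bp of the summit had a median of 33.2% (range 21.8 to 63.4) over the 36, and of 32.7% over all IDR summits. In windows 300 bp to either side the medians were 47.0% and 46.0%. It was lower at the summit than in those side windows for 29 of the 36, against 85.3% of all. Of the 7 exceptions, 3 were the EcR summits at 6102649, 6151282 and 6157693, 2 were at ftz-f1, and Eip75B and Eip78C had 1 each. At the EcR summits 6151282 and 6157693 the replicates differed in rank, as given above. Whether base composition has a part in those replicate differences was not tested.

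Motifs were searched as exact letters on both strands of the same windows. The forkhead core GTAAACA was in 0 of the 36 windows, against 2.22% of all IDR windows, and its variant ATAAACA in 2 (4.66%). Those were the window at the Eip75B-RC start and that of the second strongest Hr4 summit. The alternate forkhead site GACGC was in 4 (4.22%), at EcR, ftz-f1 and 2 of the Hr4 summits. The nuclear receptor core site AGGTCA was in 1 window (1.88%), in the first intron of Eip75B-RF, and the longer form CAAGGTCA, which contains it, in 0 (0.188%). A match is a description of the letters and does not show that a factor bound there.

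The other motifs were also found in few windows. The GATA-type site TGATAA was in 6 (9.31%), the homeodomain-type site TAATTA in 4 (9.89%), the GAGA factor site GAGAG in 6 (10.2%) and the DREF site TATCGATA in 0 (0.507%). With so few windows, a difference of 1 or 2 windows moves each share by several percent. The windows below are those outside any UTR that hold ATAAACA or AGGTCA. The Hr4 window also holds TAATTA, which overlaps ATAAACA by 1 base, and GACGC on the other strand.
Hr4 (chrX:1947704-1947804, plus strand): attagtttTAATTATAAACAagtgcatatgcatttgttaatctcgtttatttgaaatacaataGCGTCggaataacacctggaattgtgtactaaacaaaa
Eip75B (chr3L:18063210-18063310, minus strand): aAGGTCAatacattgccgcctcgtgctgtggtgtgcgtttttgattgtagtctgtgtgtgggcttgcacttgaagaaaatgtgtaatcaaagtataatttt
The Hr4 window has a GC content of 27.7% and a pooled signal of 853, and the Eip75B window has a GC content of 40.6% and a pooled signal of 307.

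In the order of all protein-coding genes by number of IDR summits, Eip75B with 11 came after 19 genes and level with 7 others. EcR and Hr4, with 7 each, came after 67 genes. Overlapping peaks count separately here, and with them merged EcR had 5 and Hr4 had 6. Having 7 or more was found in 0.759% of all protein-coding genes, and having 2 or more, as 6 of the 9 had, in 7.93%. These shares are over genes of every length. By number of summits, then by log2 of the strongest signal, the genes closest to Eip75B were E2f1, fz2 and Svil. Each had 11 summits, with a strongest signal of 663 at E2f1, 724 at fz2 and 737 at Svil. E2f1 has a body of 40568 bp, and fz2 and Svil are of 94399 and 121572 bp. This likeness rests on 2 libraries and on nothing but the number and height of peaks.

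**Figure D4:**
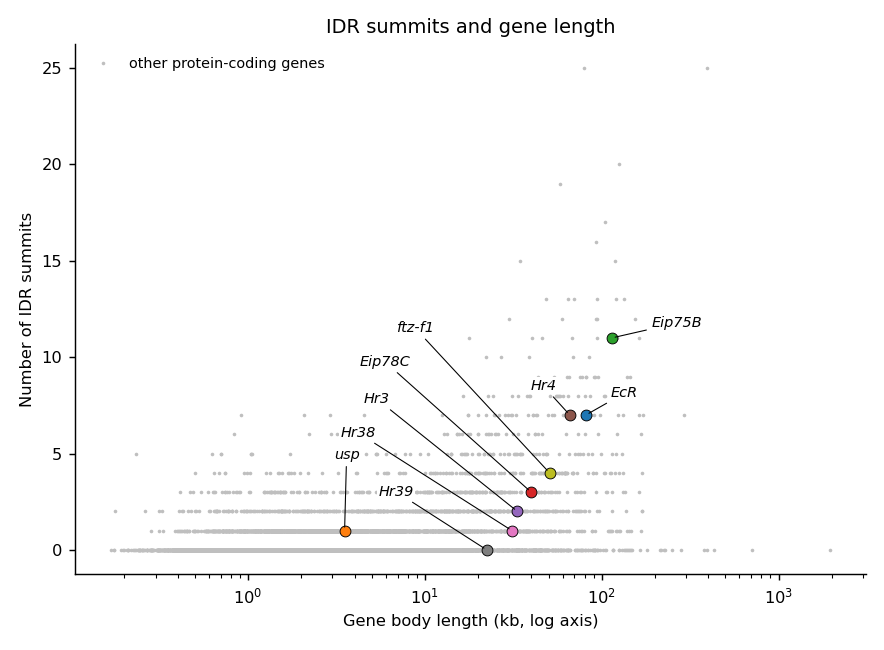
Number of IDR summits against gene body length in kb (log axis) for the 9 genes (labelled) and all other protein-coding genes (grey points). Eip75B, EcR and Hr4 are the longest of the 9 and hold 11, 7 and 7 summits, while some other genes of similar length hold none.

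Other genes of the pathway were counted from 4 lists by the same rule. Of 12 further nuclear receptor and knirps-group genes, 8 had an IDR summit, against the 20.7% of all protein-coding genes. The strongest were at Hnf4, a regulator of lipid use (521), knrl (504) and tll, a brain patterning gene (397). The tll summit lay outside the gene body, 9901 bp from its start site. The gene svp, with a body of 44049 bp, had 14 pooled regions and no IDR summit.

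Of 22 ecdysone response genes, 11 had an IDR summit. The strongest were at ImpL2, which encodes an insulin-binding protein (1472), Eip93F, a regulator of late metamorphosis (967), and hid, a cell death gene (899.96). For the ImpL2 summit the nearest protein-coding start was tied between ImpL2 and CG46460. The Eip93F summit lay outside the gene body, 7576 bp from its start site. The early gene br, which encodes zinc finger factors needed for metamorphosis, had 32 pooled regions over 89738 bp and no IDR summit.

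Of 14 genes that make, import or trigger the hormone, 3 (21.4%) had an IDR summit, close to the 20.7% of all protein-coding genes. They were EcI, an ecdysteroid importer (367), shd, which encodes the enzyme of the last synthesis step (293), and mld (115). The nearest protein-coding start was that of edin for the strongest EcI summit and that of Syx18 for the mld summit. The strongest shd summit lay outside the gene body, 1454 bp from its start site. The synthesis genes phm, dib, sad, nvd, spo, spok and sro had none. Of 10 receptor cofactor genes, 6 had a summit, with the strongest at Smr, a corepressor gene (994), Hsp83 (447) and bon (382). The coactivator gene tai had 5. These lists also differ in gene length, with median bodies of 6089 bp for the other receptors, 8324 bp for the response genes, 3335 bp for the synthesis group and 6647 bp for the cofactors, and its part in the counts was not tested.

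**Figure D5:**
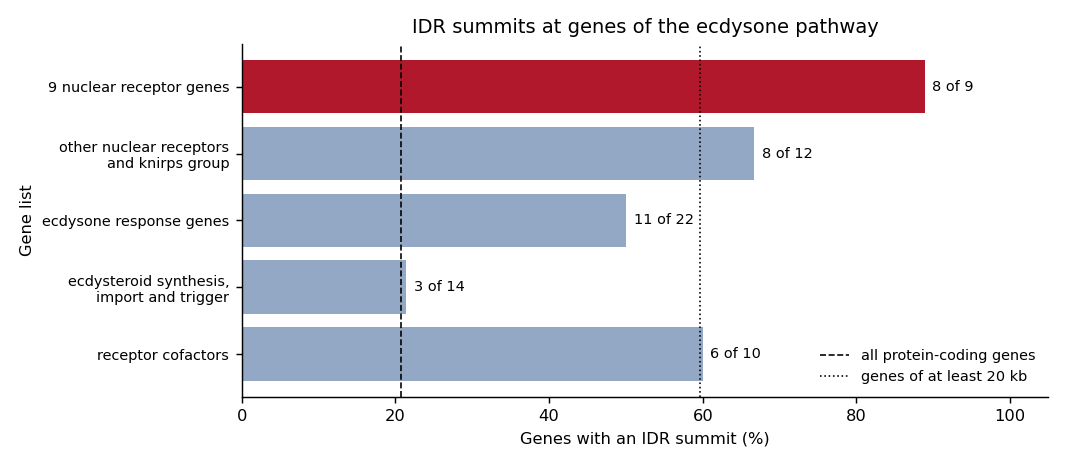
Percent of genes with an IDR summit in the 9 nuclear receptor genes (red) and in 4 other lists of the ecdysone pathway, with the number of genes beside each bar. The dashed line is the share of all protein-coding genes (20.7%) and the dotted line that of genes of at least 20 kb (59.6%). The red bar includes usp, which is shorter than 20 kb. The 9 genes reach 8 of 9, and the synthesis, import and trigger list, at 3 of 14, lies near the dashed line.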

How the data were processed

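The authors deposited peak lists in dm6 and dm3, per the file descriptions: regions called with a control on each replicate and on the pooled alignments, and pooled peaks thresholded by IDR. Which caller was used is not given in the sources used here, nor are its version and the IDR threshold. The deposited signal is a score in the authors' units, and the deposited −log10 q value is tied at its maximum in most IDR peaks. The lists hold no read totals, so depth is unknown.

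The 4 dm6 lists were used with Ensembl release 115 models and the RefSeq sequence of the same assembly. Transposable elements were left out. Summits (start plus offset) were assigned as stated. Matching replicate summits lay within 100 bp, promoters spanned 500 bp to either side of a start site, and motif windows 50 bp. The members and lists were chosen with earlier results of these data known, so no test was made. Named genes were the 9 members, fd59A, the 3 genes of highest signal in each of 4 pathway lists, and the 3 most like Eip75B. Others named in a list, svp, br, tai and the synthesis genes without a summit among them, were picked after their values were seen. So was the second set of sequences. Of 58 listed genes, 4 were matched through a current name. Assignment and matching code was tested on simulated data. Alternatives varied assignment, threshold, replicate, match distance, promoter width and motif window. Python 3.11.15, numpy 2.4.6, pandas 2.3.3, scipy 1.17.1 and matplotlib 3.10.9 were used.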

Additional observations from a re-analysis of the deposited data

How the results depend on the processing

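The count of 36 summits became 21 with the nearest protein-coding start alone, 19 among the 2663 strongest IDR peaks and 11 among the 1000 strongest regions. Genes with a summit fell to 5 of 9 among the 1000 strongest and stayed between 6 and 8 elsewhere. Without either replicate in turn, the 5327 strongest regions of the other gave 35 to 37 summits at 8 genes, with ftz-f1 at 2 without replicate 2 and 6 without replicate 3. Promoters of 1000 bp either side held 5 summits in place of 3. The share of all protein-coding genes with a summit, 20.7%, became 11.4% in bodies alone, 19.0% by nearest start alone, 37.6% for genes at least as long as usp and 59.6% for genes of at least 20 kb, the last chosen after seeing the data. Matches within 50 and 200 bp numbered 31 and 36. In motif windows of 100 bp either side GTAAACA was in 1 window (4.64% of all IDR windows) and GAGAG in 12 (22.6%). The cause of these shifts was not tested beyond the smaller sets used. No paired analysis was possible because there is only 1 group. Unknown depth and 2 libraries limit what weak regions can show.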
